A study of Mus musculus with 6 samples.

Results

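The tripartite motif (TRIM) genes are described here in untreated bone marrow-derived macrophages of WT and Lcn10-KO mice. Members were all rows of the deposited table whose symbol begins with Trim and a digit, together with *Mid1* and *Mid2*, the TRIM18 and TRIM1 genes. This gave 70 of the 24972 rows. Of these, 41 reached 10 in 3 or more libraries and were tested, and 29 lay under that filter.

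TRIM proteins share an amino-terminal RING finger, B-box zinc-binding domains and a coiled coil, and most act as E3 ubiquitin ligases, which attach ubiquitin to chosen substrates. The carboxy-terminal domain differs between members and sets what each one binds: a PRY-SPRY domain in the largest group, PHD and bromodomains in the chromatin group, NHL repeats, or a COS box that holds the protein on microtubules. In macrophages several PRY-SPRY members are induced by interferon and act in the sensing of viral RNA and DNA, in capsid restriction or in the damping of Toll-like receptor signals.

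The macrophages were grown from bone marrow with L929 cell supernatant, which supplies the growth factor CSF-1, and received no treatment. WT, the wild-type group, and Lcn10-KO, mice with a knockout of *Lcn10*, a lipocalin gene, had 3 libraries each, numbered as replicates 1 to 3. The labels as used here do not give the strain, sex or age of the mice, how the knockout was made, or whether each replicate is another animal. P-values therefore rest on library-to-library spread, and this may be technical. Values are read counts that the authors scaled to nearly equal library totals of 20476700 to 20636300, called normalized counts below, and about 18000000 to 24800000 reads stand behind them. *Lcn10* was listed at 0 in all 6 libraries, so it could not check the genotype labels. The 8 macrophage markers summed to 280139 to 290880 normalized counts in WT and 293764 to 308309 in Lcn10-KO, without overlap. Of the 8, 4 were past the test (*Adgre1*, *Cd14*, *Csf1r* and *Mertk*), against 9.84% of all tested genes. The part of this difference in the results was not tested. Markers of other cells were lower: 7 fibroblast markers summed to 3135 to 4721 in WT and 4196 to 4792 in Lcn10-KO with none past the test, and 7 endothelial markers to 1378 to 1566 and 1469 to 2004 with *Vwf* past it. The sums of 5 B cell markers (17.9 to 32.7 in WT and 33.6 to 40.1 in Lcn10-KO) and of 5 mast cell and eosinophil markers (34.2 to 51.1 and 55.0 to 66) were low and did not overlap between genotypes, and their part in the results was not tested. The 5 T and NK cell markers in the table summed to at most 5.20 in any library. The 7 neutrophil markers summed to 289 to 383 in WT and 350 to 383 in Lcn10-KO with none past the test. Of these, *Ly6g* was listed at 0 in all 6 libraries, and 4 reached the filter. In bulk RNA, fewer cells of a type and less RNA per cell cannot be told apart.

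Of the 41 tested members, *Mid1* and *Trim28* passed the test, both lower in Lcn10-KO, and 39 did not. *Mid1*, the microtubule-associated ligase, lay at 38.1% of its WT mean in Lcn10-KO, and *Trim28*, a transcriptional corepressor, at 87.3%. The test was limma on log2(value + 1) over the whole table, with a Benjamini-Hochberg adjusted p under 0.05, and it called 9.84% of all 12091 tested genes (4.7% higher and 5.14% lower in Lcn10-KO). The members' share, 4.88%, was below that background. None was called higher. At an unadjusted p under 0.05 there were 3 higher (*Trim23*, *Trim41* and *Trim21*) and 4 lower (*Mid1*, *Trim28*, *Trim56* and *Trim45*), or 17.1% of tested members against 26.3% of tested genes, and no other tool was run.

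The genotypes did not overlap in 14 of the 41 members, with WT above in 7 and Lcn10-KO above in 7. That is 34.1%, near the background of 32.4% of tested genes. *Mid1* was the only tested member over 1.5-fold apart, where 3.5% of all tested genes were. For 33 of the 41 members (80.5%, against 81.0% of all tested genes) the 95% interval of the fitted change stayed within 1.5-fold in either direction. The 8 others were *Mid1* itself, *Trim5*, *Trim45* and the low-level *Trim6*, *Trim7*, *Trim30b*, *Trim46* and *Mid2*. The median log2 fold change was 0.05 over the tested members and −0.0011 over all tested genes. For each class and list below, the background is 9.84% of tested genes called, 26.3% at an unadjusted p under 0.05 and 32.4% without overlap. Below, a pair of values in parentheses gives the log2 fold change, Lcn10-KO minus WT, with its SE, and then the limma adjusted p.

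**Figure D1:**
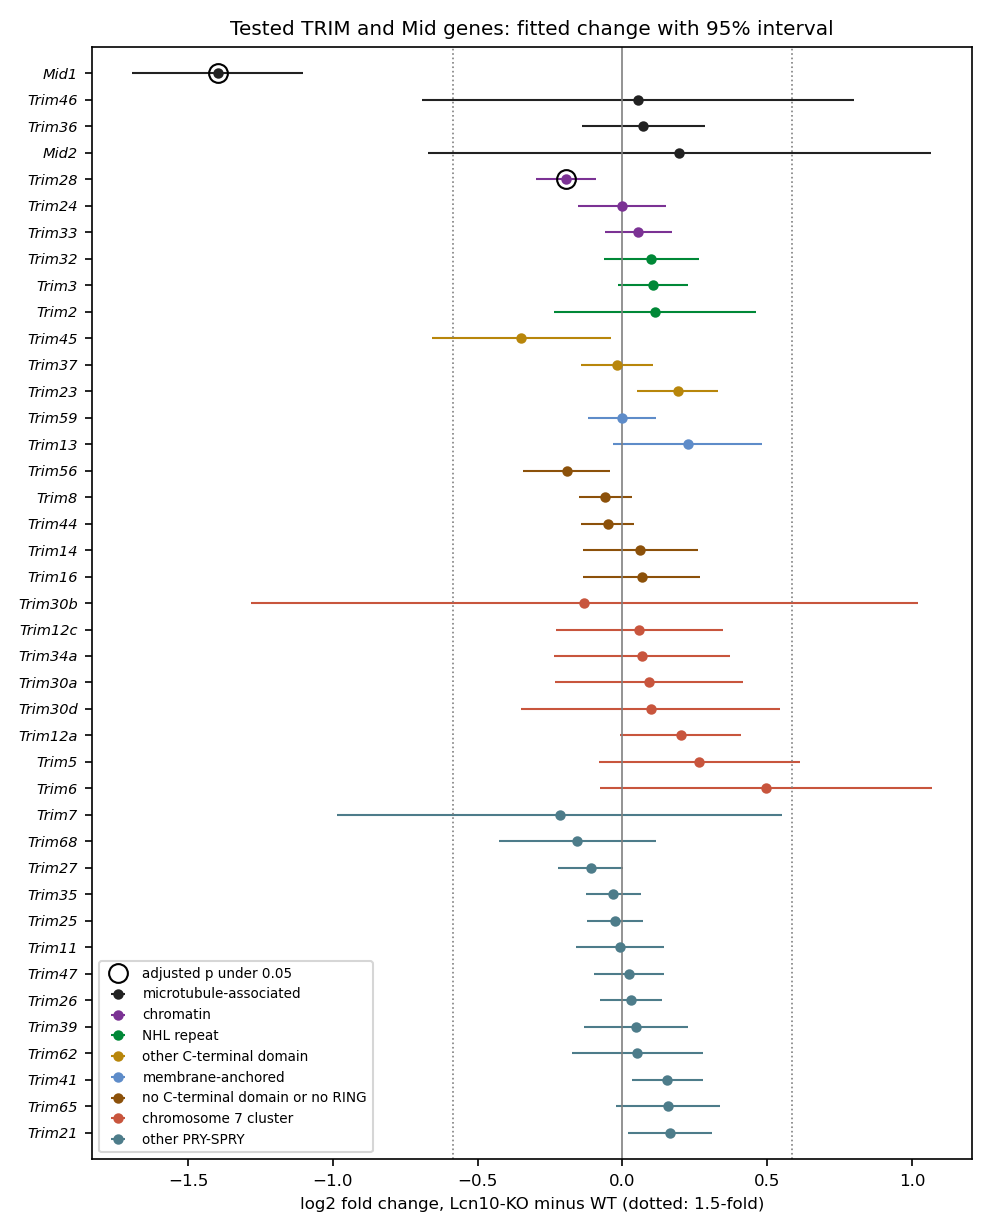
Fitted log2 fold change (Lcn10-KO minus WT, horizontal axis) of the 41 tested members, one per row, with its 95% interval, coloured by role class and with dotted lines at 1.5-fold. *Mid1* stands alone at −1.40, and *Trim28* (−0.19) is the other circled gene past the threshold.

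Levels of different genes are compared per kilobase of the longest annotated transcript. *Trim28* was the highest member on this scale, at 1444 ± 87 in WT and 1261 ± 20.5 in Lcn10-KO normalized counts per kb (mean ± SD, n = 3). *Trim35*, a PRY-SPRY ligase, followed at 1126 ± 42.6 in WT and 1102 ± 25.7 in Lcn10-KO. *Trim14*, which has no RING and acts as an adaptor of mitochondrial antiviral signalling, stood at 777 ± 74.8 in WT and 812 ± 80.9 in Lcn10-KO. *Trim25*, the ligase that ubiquitinates the RNA sensor RIG-I, stood at 765 ± 32.2 in WT and 752 ± 18.3 in Lcn10-KO, and its values and those of *Trim14* overlapped within each genotype. Exons of opposite-strand genes, among them *Nans* (1652 ± 83.7 normalized counts in WT and 1487 ± 66 in Lcn10-KO), cover 38.0% of the exon bases of *Trim14*, and with the strand setting unknown its level and rank are uncertain. *Trim8*, a regulator of cytokine signalling, came next at 603 ± 14 in WT and 579 ± 2.63 in Lcn10-KO. *Mid1* was the 19th of 41 by its mean over all libraries, with 232 ± 25.6 in WT and 88.2 ± 15.3 in Lcn10-KO. Its relative *Mid2* was the lowest tested member, at 1.57 ± 0.423 in WT and 1.87 ± 0.79 in Lcn10-KO.

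**Figure D2:**
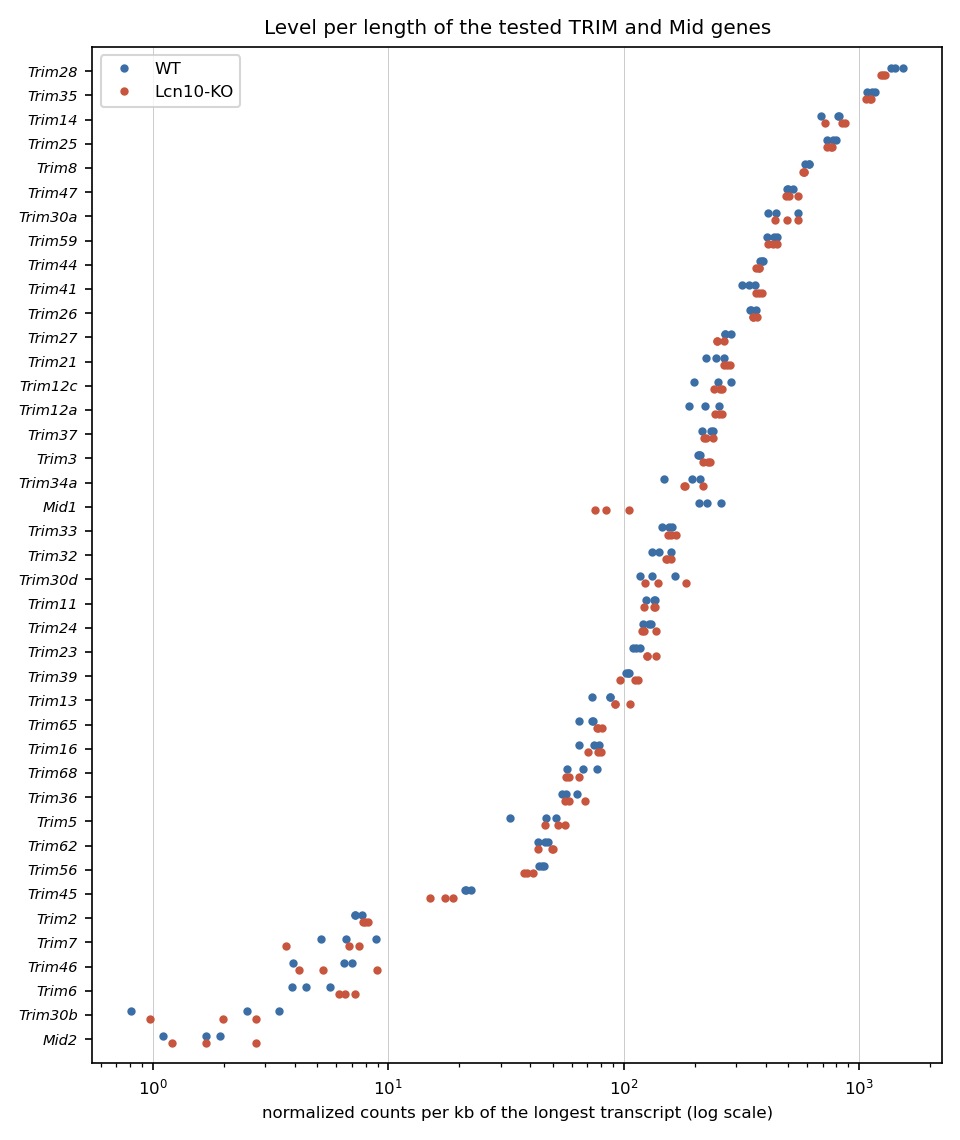
Normalized counts per kb of the longest transcript (log axis) for the 41 tested members, ordered by their mean, with 1 point per library in blue for WT and red for Lcn10-KO. Levels span from means of 1444 (WT) in *Trim28* to 1.57 (WT) in *Mid2*, and *Mid1* is the member whose colours lie far apart.

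*Mid1* was lower in each Lcn10-KO library. MID1 binds microtubules through its COS box and, with the adaptor alpha4, brings the catalytic subunit of protein phosphatase 2A to degradation. Its normalized counts were 1032, 895 and 833 in WT replicates 1 to 3 and 299, 418 and 334 in Lcn10-KO replicates 1 to 3. The lowest WT library thus lay at about 2 times the highest Lcn10-KO library, and WT replicate 1 and Lcn10-KO replicate 2 were the highest of their genotypes. Means were 920.0 ± 102 in WT and 350.4 ± 61 in Lcn10-KO (± SD, n = 3 each), with a log2 fold change of −1.40 ± 0.13 (SE), a 95% interval of −1.69 to −1.10 and an adjusted p of 0.00128. Without the mean-variance trend the same fold change missed the threshold (adjusted p = 0.0518). Over all other alternatives the call held, with adjusted p from 2.44e-05 to 0.0235.

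*Mid1* (ENSMUSG00000035299.16) runs from 169685199 to 170005736 on the plus strand of chromosome X in GRCm38, the assembly behind mm10. The gene is known in laboratory mice for spanning the boundary of the pseudoautosomal region, the stretch that X and Y share. RefSeq on GRCm38.p6 gives 3 promoter windows for it, and values per gene cannot tell which start was used. The window at the most upstream start is shown with that of *Trim28*, as the promoters of the called members. Each holds 250 bases before the start in lower case and 50 after it in capitals, 5′ to 3′.
Mid1, chrX:169684949-169685248, plus strand: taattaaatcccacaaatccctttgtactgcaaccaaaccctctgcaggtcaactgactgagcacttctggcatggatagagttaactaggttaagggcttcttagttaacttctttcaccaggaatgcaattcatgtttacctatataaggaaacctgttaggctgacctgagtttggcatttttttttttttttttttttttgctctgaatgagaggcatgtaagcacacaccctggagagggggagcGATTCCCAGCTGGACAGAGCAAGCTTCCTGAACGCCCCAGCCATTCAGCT
Trim28, chr7:13023902-13024201, plus strand: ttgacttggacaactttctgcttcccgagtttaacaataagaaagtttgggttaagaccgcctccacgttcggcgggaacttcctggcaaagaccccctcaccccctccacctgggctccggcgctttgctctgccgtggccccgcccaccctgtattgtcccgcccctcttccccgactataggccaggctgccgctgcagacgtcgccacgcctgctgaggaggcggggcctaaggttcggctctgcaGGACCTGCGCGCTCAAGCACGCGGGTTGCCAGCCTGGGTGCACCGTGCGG
The *Mid1* window had a GC content of 43.7% and 2 CpG sites, the *Trim28* window 64.0% and 23, against medians of 52.7% and 7 over 32851 windows of all genes. The other *Mid1* windows, at starts 169828159 and 169879619, had 53.7% and 55.0% GC with 6 and 13 CpG sites.

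Part of the *Mid1* signal can come from other loci. *G530011O06Rik*, *Gm15247* and *Gm15726* lie on the opposite strand, and their exons cover 17.9% of the exon bases of *Mid1*. The strand setting of the counting is not given in the sources used here. *G530011O06Rik* had 552, 249 and 408 in WT replicates 1 to 3 and 208, 277 and 214 in Lcn10-KO replicates 1 to 3. Those groups overlapped through WT replicate 2, and the gene did not pass (log2 fold change −0.72 ± 0.32, adjusted p = 0.242). Without WT replicate 2 it did, at −1.03 and an adjusted p of 0.00807. Leaving out the library that made the groups overlap favours a call, so that fit is no separate support. By sequence, 16.4% of the 31-base words of *Mid1* transcripts also occur in transcripts of other genes, with the largest share in *Mid1-ps1*, a pseudogene annotated on the Y chromosome. *Xist*, which is transcribed from the inactive X of cells with a pair of X chromosomes, lay between 27492 and 30918 in all 6 libraries, and the Y-linked *Ddx3y*, *Eif2s3y*, *Kdm5d* and *Uty* did not exceed 3.13 in any. How far the opposite-strand genes enter the *Mid1* difference was not tested.

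**Figure D3:**
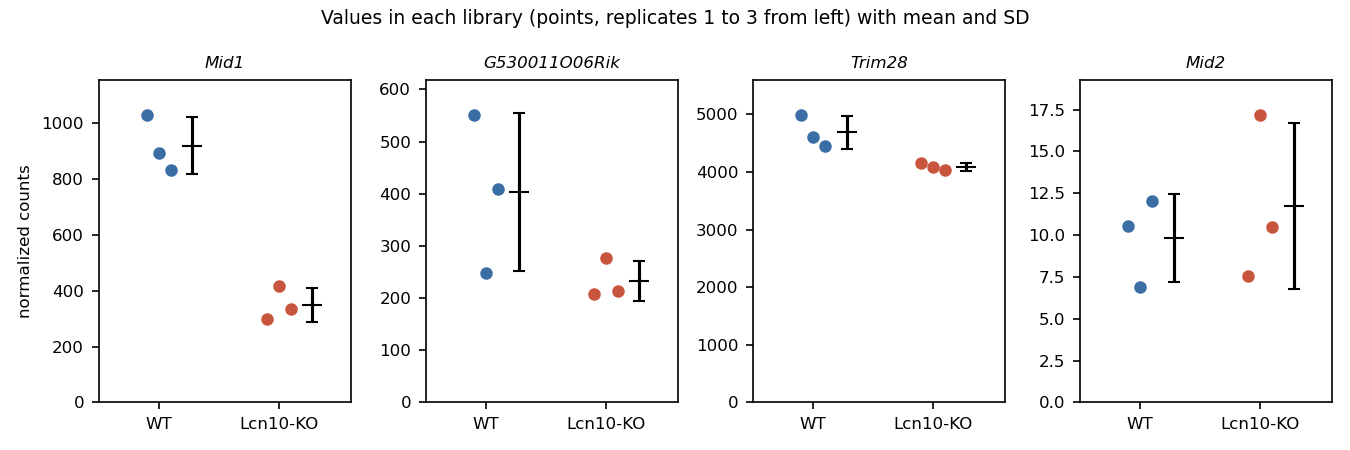
Normalized counts in each library for *Mid1*, *G530011O06Rik*, *Trim28* and *Mid2* (vertical axes from 0), with points for replicates 1 to 3 from left to right and a bar for mean ± SD. *Mid1* and *Trim28* separate the genotypes, *G530011O06Rik* and *Mid2* do not.

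In a list of 19 genes of the X chromosome around *Mid1*, 14 were tested and 1 (7.14%, against 9.84% of all tested genes) passed, *Arhgap6*. It was higher in Lcn10-KO, opposite to *Mid1*, at 685, 861 and 841 in WT and 1010.1, 1109.9 and 1154 in Lcn10-KO (log2 fold change 0.46 ± 0.09, adjusted p = 0.0135). That call was lost without Lcn10-KO replicate 2 or 3 (adjusted p = 0.0720 and 0.0705) and without the trend (0.117). *Hccs*, a heme lyase gene, is the tested gene nearest to *Mid1* on its upstream side, and its values overlapped (−0.03 ± 0.06, adjusted p = 0.805), as did those of *Msl3* (−0.02 ± 0.05, 0.83). *Erdr1*, a gene of the pseudoautosomal region, had 1185, 1001 and 988 in WT and 637, 854 and 537 in Lcn10-KO, without overlap. As in *Mid1* and *G530011O06Rik* the highest WT value was in replicate 1 and the highest Lcn10-KO value in replicate 2. How many of all tested genes have this order was not counted, and *G530011O06Rik* shares exon bases with *Mid1*. *Erdr1* missed the threshold (log2 fold change −0.67 ± 0.19, adjusted p = 0.0911), but passed in limma without robust estimation (0.0177) and without Lcn10-KO replicate 2 (0.00426). Since that library held its highest Lcn10-KO value, leaving it out favours a call. Further upstream, the endosomal RNA sensors *Tlr7* (0.19 ± 0.06, adjusted p = 0.0647) and *Tlr8* (0.21 ± 0.07, 0.0956) and *Rab9* (0.27 ± 0.08, 0.0606) lay above WT, and *Tmsb4x* (−0.11 ± 0.05, 0.155) below, in every Lcn10-KO library, without passing.

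**Figure D4:**
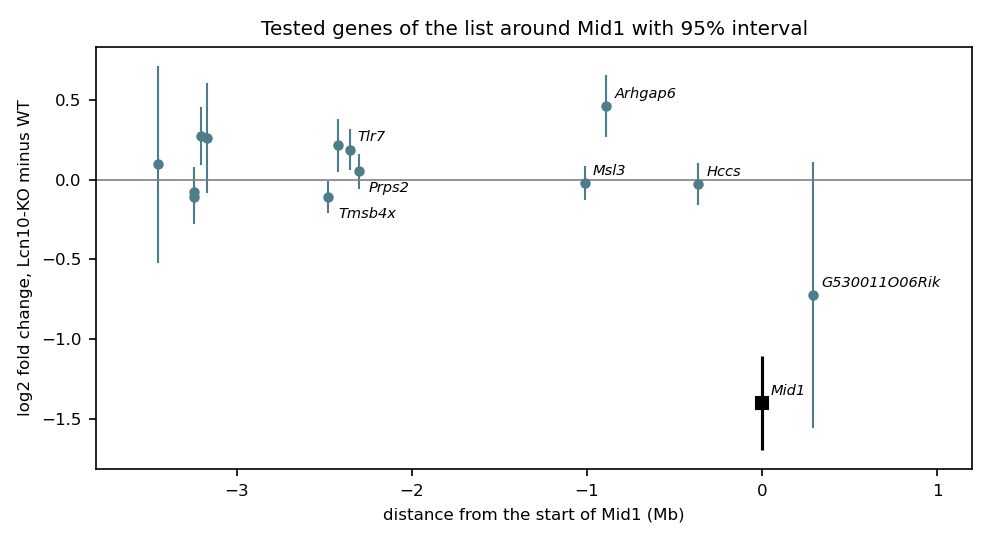
Log2 fold change with 95% interval (vertical axis) against the distance of each gene's start from that of *Mid1* in Mb (horizontal axis) for the tested listed genes placed on chromosome X. *Mid1* (square) lies at −1.40, *G530011O06Rik* next to it at −0.72, and the genes before it lie between −0.11 and 0.46.

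The other microtubule-associated members gave no call. The normalized counts of *Mid2* were 10.5, 6.89 and 12.1 in WT replicates 1 to 3 and 7.53, 17.2 and 10.5 in Lcn10-KO replicates 1 to 3. Its groups overlapped and its interval was wide (log2 fold change 0.20 ± 0.40, 95% interval −0.67 to 1.07), so neither a rise nor a fall of up to 1.5-fold can be told from none in these libraries. *Trim36*, a microtubule-binding ligase, had 264 ± 20.1 in WT and 278 ± 30.4 in Lcn10-KO (log2 fold change 0.07 ± 0.10, adjusted p = 0.692). *Trim46*, which organises microtubules at the axon initial segment, had 22.7, 12.7 and 21 in WT and 17.2, 13.6 and 29.2 in Lcn10-KO (0.05 ± 0.34, adjusted p = 0.948). The neuronal *Trim9* and *Trim67* did not exceed 1.06 in any library. Of 14 listed partners of MID1, among them phosphatase 2A subunits, all were tested and none passed (1 at an unadjusted p under 0.05, lower). *Mtor* (−0.10, adjusted p = 0.225), the kinase whose signalling phosphatase 2A counters, was the one whose groups did not overlap. *Rptor* had −0.13 (0.156), *Mid1ip1*, coding for a protein that stabilises microtubules with MID1, 0.11 (0.196), and *Stk36* 0.53 (0.321).

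In the chromatin class, *Trim28* was lower in Lcn10-KO. TRIM28, also called KAP1, is recruited by KRAB zinc finger proteins and silences retroelements through histone methylation. The values were 4998, 4616 and 4447 in WT replicates 1 to 3 and 4164, 4080.4 and 4032 in Lcn10-KO replicates 1 to 3. The lowest WT library (replicate 3) stood above the highest Lcn10-KO library (replicate 1). Means were 4687 ± 282 in WT and 4092 ± 66.6 in Lcn10-KO, a log2 fold change of −0.19 ± 0.05 (SE, n = 3 each, 95% interval −0.30 to −0.09, adjusted p = 0.026). The call was lost without any one of the Lcn10-KO libraries (adjusted p = 0.0672, 0.115 and 0.107 without replicates 1 to 3) and without the trend (0.144). Over all alternatives the log2 fold change lay between −0.23 and −0.15. *Trim24* (509.9 ± 21.3 in WT and 509.8 ± 37.3 in Lcn10-KO) and *Trim33*, a regulator of Smad signalling (1366 ± 67 in WT and 1419.5 ± 59 in Lcn10-KO), overlapped between genotypes, with changes of −0.0022 ± 0.07 and 0.06 ± 0.05 and intervals within 1.5-fold. *Trim66* lay between 5.67 and 12.7 and was not tested.

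Of 20 listed partners of these chromatin members, all tested, 2 were higher, 1 lower and 17 not called. That is 15% called, against 9.84% of all tested genes, and 35% were without overlap, against 32.4%. *Cbx5*, which codes for heterochromatin protein 1 alpha, a partner of TRIM28, fell from 3718 ± 171 to 3276 ± 84.6 (log2 fold change −0.18 ± 0.05, adjusted p = 0.0283). *Smad3*, a mediator of transforming growth factor beta signals, rose with 385, 376 and 357 in WT and 479, 459.6 and 431 in Lcn10-KO (0.29 ± 0.07, adjusted p = 0.0244), and *Rnf2*, a Polycomb ligase, with 859, 932 and 909.6 in WT and 1013, 1026 and 1016 in Lcn10-KO (0.18 ± 0.05, 0.0474). Each of these calls was lost without any one of the Lcn10-KO libraries and without the trend. *Smad3* also lost its call without WT replicate 3 (adjusted p = 0.0689), and *Rnf2* without WT replicate 1 or 3 (0.0956 and 0.0837) and with no filter on low values (0.0646).

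The TRIM cluster of chromosome 7 holds the mouse relatives of human TRIM5, a factor that restricts retroviral capsids, with the *Trim30* and *Trim34* genes. Its 10 members here lie between 104218793 and 104535361 in GRCm38, and 8 were tested. To see what these promoters share, a core of the interferon-stimulated response element, GAAA then any 2 bases then GAAA, was searched on both strands (TTTC, 2 bases, TTTC on the other) in the RefSeq promoter windows of 300 bases. Windows were found for 54 of the 70 members, 70 windows in all. The motif was in 10 windows of 9 members, *Trim2*, *Trim5*, *Trim12a*, *Trim12c*, *Trim21*, *Trim26*, *Trim30a* (2 windows), *Trim30d* and *Trim34a*, all of them tested. It was in 3.44% of the windows of all genes. Among the tested cluster members, *Trim6* and *Trim30b* had windows without the motif. The stretches of the cluster members and of *Trim21*, the cytosolic antibody receptor encoded on the same chromosome, are printed 5′ to 3′ on the gene's strand, with the motif in capitals and 15 bases on either side.
Trim5, chr7:104288131-104288170, minus strand: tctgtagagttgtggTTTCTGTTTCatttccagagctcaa
Trim12a, chr7:104315461-104315500, minus strand: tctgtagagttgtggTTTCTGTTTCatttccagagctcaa
Trim12c, chr7:104353354-104353393, minus strand: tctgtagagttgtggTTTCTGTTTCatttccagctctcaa
Trim30a, chr7:104465205-104465244, minus strand: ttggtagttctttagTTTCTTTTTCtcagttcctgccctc
Trim30a, chr7:104446099-104446138, minus strand: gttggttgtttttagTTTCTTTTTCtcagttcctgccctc
Trim30d, chr7:104507866-104507905, minus strand: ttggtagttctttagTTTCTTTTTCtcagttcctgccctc
Trim34a, chr7:104244452-104244491, plus strand: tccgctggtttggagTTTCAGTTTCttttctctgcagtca
Trim21, chr7:102565439-102565484, minus strand: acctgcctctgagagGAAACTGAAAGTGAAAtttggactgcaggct
The *Trim5* and *Trim12a* stretches were identical over 40 bases and shared 38 of 40 with *Trim12c*, and the *Trim30a* stretch at 104465205 was identical to that of *Trim30d* over 40. The other *Trim30a* stretch, at 104446099, shared 33 of 40 with each of these. The *Trim34a* stretch shared 22 of 40 with *Trim5*. In *Trim21* a pair of matches overlapped into 1 run of 16 bases. A match describes these letters and shows no binding.

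None of the 8 tested cluster members passed, where 9.84% of all tested genes did. The genotypes overlapped in 7 of the 8, so that 12.5% were without overlap, against 32.4% of all tested genes. *Trim30a*, a damper of Toll-like receptor signalling, had 1544, 1665 and 2066 in WT replicates 1 to 3 and 1863, 2081 and 1658 in Lcn10-KO replicates 1 to 3. The highest libraries were WT replicate 3 and Lcn10-KO replicate 2, and the log2 fold change was 0.09 ± 0.13 (adjusted p = 0.726). *Trim12c* had 746, 936 and 1069 in WT replicates 1 to 3 and 975, 957 and 903 in Lcn10-KO replicates 1 to 3. Its WT libraries held both the lowest and the highest value (0.06 ± 0.12, adjusted p = 0.816). *Trim34a* had 385, 507 and 545 in WT and 471, 560.2 and 465 in Lcn10-KO, *Trim30d* 386, 433 and 543 in WT and 457, 601 and 405 in Lcn10-KO, and *Trim12a* 291, 338 and 388 in WT and 373, 402 and 387 in Lcn10-KO. *Trim12a* came nearest to the threshold of the 8, at 0.20 ± 0.10 with an adjusted p of 0.209. *Trim5* had 120.1, 170.3 and 189 in WT and 206, 193 and 169 in Lcn10-KO (0.27 ± 0.16, 0.323). *Trim6*, which makes ubiquitin chains in interferon signalling, was low but did not overlap, at 17.2, 21.6 and 14.8 in WT and 27.6, 23.6 and 24.9 in Lcn10-KO, and did not pass (0.50 ± 0.26, 95% interval −0.08 to 1.07, adjusted p = 0.258). *Trim30b* stayed at or under 14.7 in every library.

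WT replicate 1 was the lowest library in 7 of the 8 cluster members (87.5%), a library that was lowest in 27.6% of all tested genes. Summed over the 8, the normalized counts were 3493, 4086 and 4825 in WT and 4382, 4828 and 4016 in Lcn10-KO, so that the spread within WT was larger than the difference of the means (4135 ± 668 in WT and 4409 ± 406 in Lcn10-KO). A list of 30 interferon-stimulated genes, none of them members, summed to 23275, 26145 and 28957 in WT and 25437, 28439 and 21691 in Lcn10-KO. Its highest libraries were the same ones, WT replicate 3 and Lcn10-KO replicate 2. Its lowest were Lcn10-KO replicate 3 and WT replicate 1, the reverse of their order in the cluster. WT replicate 3 and Lcn10-KO replicate 2 also had the most reads, about 24800000 and 24400000. The other libraries had about 18000000 to 19800000. The part of depth in this shared pattern was not tested. None of the 30 passed the test, against 9.84% of all tested genes, and 0 were at an unadjusted p under 0.05, against 26.3%. The fitted change was above 0 in 8 and below 0 in 22, where all tested genes had 6014 above and 6077 below. The mean log2 deviation of the 30 was −0.40 in Lcn10-KO replicate 3 and −0.19 in WT replicate 1. Their signs are therefore not independent counts. The 9 members with the motif had fitted changes from 0.03 to 0.27 with a median of 0.10. The 23 tested members with a promoter window but no motif had 10 above 0 and 13 below, with a median of −0.0022. The 9 include near copies, and most of them were lowest in WT replicate 1, so their signs are not independent counts either. Without WT replicate 1 the sign turned in *Trim12c* (−0.083), *Trim30d* (−0.011) and *Trim34a* (−0.080), and without Lcn10-KO replicate 2 in *Trim30d* (−0.063) and *Trim34a* (−0.018).

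**Figure D5:**
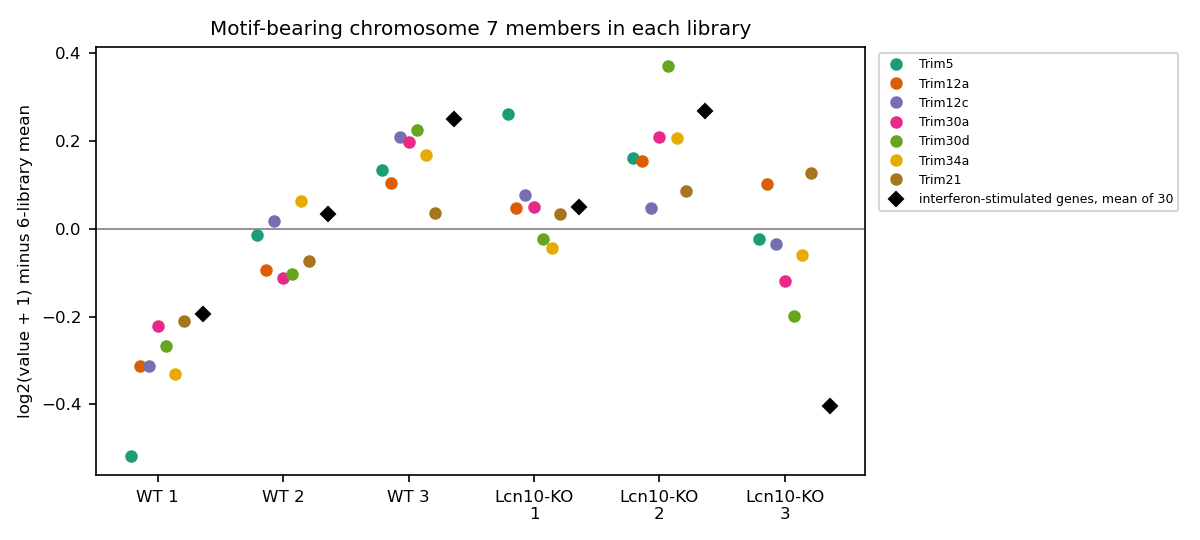
Log2(value + 1) minus its mean over the 6 libraries (vertical axis) in each library (horizontal axis) for 7 chromosome 7 members with the motif, and the mean of 30 interferon-stimulated genes as diamonds. All 7 genes lie lowest in WT replicate 1. WT replicate 3 and Lcn10-KO replicate 2, the libraries with the most reads, hold high values of both kinds.

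Reads cannot always be assigned within this cluster. Of the 31-base words of *Trim5* transcripts, 37.9% also occur in *Trim12c* and 12.3% in *Trim12a*. *Trim34a* shares 48.7% with *Trim34b*, which was listed at no more than 4.12, and *Trim30a* shares 8.5% with *Trim30d*. The single values of these genes are uncertain, and sums over near copies are less so. *Trim5*, *Trim12a* and *Trim12c* together had 1416 ± 246 in WT and 1522 ± 53.8 in Lcn10-KO. The 3 tested *Trim30* genes together had 2222 ± 356 and 2363 ± 315.

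Most of the other PRY-SPRY members differed little between the genotypes. Of 27 genes placed in this class 13 were tested and none passed, against 9.84% of all tested genes. *Trim25* had 4083, 4436 and 4317 in WT replicates 1 to 3 and 4273, 4251 and 4086 in Lcn10-KO replicates 1 to 3. The genotypes overlapped, with a log2 fold change of −0.03 ± 0.04 and a 95% interval of −0.12 to 0.07. *Trim35* was as even, at 4142 ± 157 in WT and 4052 ± 94.4 in Lcn10-KO (−0.03 ± 0.04). *Trim41*, a ligase with antiviral roles, had 1086, 1235 and 1162 in WT replicates 1 to 3 and 1254, 1331 and 1292 in Lcn10-KO replicates 1 to 3. Each Lcn10-KO library was above each WT library, yet the adjusted p was 0.0948 (0.16 ± 0.06). It passed in 1 alternative, without WT replicate 2 (0.20, adjusted p = 0.0341). *Trim21* had 627, 689.6 and 743 in WT and 743, 769.9 and 792 in Lcn10-KO (0.16 ± 0.07, adjusted p = 0.142). Its genotypes overlapped only by WT replicate 3 and Lcn10-KO replicate 1, at 743.5 and 742.7. *Trim27* was lower without overlap, at 1229, 1164 and 1162 in WT and 1145, 1078 and 1071 in Lcn10-KO (−0.11 ± 0.05, 0.193), and *Trim65*, which ubiquitinates the RNA sensor MDA5, higher without overlap (0.16 ± 0.08, 0.252). *Trim11*, *Trim26*, *Trim39*, *Trim47*, *Trim62* and *Trim68* had fitted changes from −0.16 to 0.05, all with overlapping groups. *Trim7* was low in every library, from 8.69 to 20.9.

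The remaining classes, whose members have another carboxy-terminal domain, none, or no RING, gave no call either. *Trim23*, whose carboxy-terminal part is an ARF GTPase and which acts in autophagy, came closest to the threshold of all members not called. Its values were 468, 498 and 482 in WT replicates 1 to 3 and 583, 537 and 533 in Lcn10-KO replicates 1 to 3. No Lcn10-KO library reached down to WT, and the log2 fold change was 0.19 ± 0.06 (adjusted p = 0.0791). *Trim45* had 103, 98.9 and 97.7 in WT and 86.9, 69 and 80 in Lcn10-KO (−0.35 ± 0.14, adjusted p = 0.142). *Trim37*, a MATH-domain ligase that limits centrosome proteins, overlapped between genotypes (−0.02 ± 0.06).

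*Trim56*, an activator of cytosolic DNA sensing, had 427, 404 and 419 in WT and 381, 361 and 351 in Lcn10-KO (no overlap). The gene did not pass (−0.19 ± 0.07, adjusted p = 0.0962). *Trim8* (−0.06 ± 0.04, 0.413) and *Trim44* (−0.05 ± 0.04, 0.491), the latter without a RING, were also lower without overlap by small amounts, while *Trim14* and *Trim16* overlapped. The 3 tested NHL members had fitted changes of 0.10 to 0.11. *Trim3* had 631, 626 and 638 in WT and 699, 656 and 685 in Lcn10-KO, with no overlap (0.11 ± 0.06, 0.252). *Trim2*, at 57.4, 53.6 and 53.7 in WT and 60.7, 59.2 and 58.2 in Lcn10-KO, did not overlap either (0.11 ± 0.16, 0.713), and *Trim32* did. Of the membrane-anchored pair, *Trim13*, an endoplasmic reticulum ligase, had 141, 119 and 141 in WT and 149, 149 and 171 in Lcn10-KO (0.23 ± 0.12, 0.257). *Trim59* was even, at 1259.8 ± 59.9 in WT and 1258 ± 58 in Lcn10-KO.

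The 29 members under the filter included 12 listed at 0 in all 6 libraries, *Trim10*, *Trim15*, *Trim31*, *Trim40*, *Trim43b*, *Trim50*, *Trim52*, *Trim54*, *Trim60*, *Trim61*, *Trim75* and *Trim80*. The other 17 reached at most 12.7, in *Trim66*. The muscle RING genes *Trim54*, *Trim55* and *Trim63* and the muscle membrane-repair gene *Trim72* were all at or under 1.14. *Trim38*, which damps inflammatory signalling, was listed at 0 in 3 libraries and at no more than 1.14 in the others. *Trim58* of red cell precursors did not exceed 1.13, and *Trim71*, a stem cell NHL gene, did not exceed 1.13 either. *Trim17* lay between 0.823 and 3.43, *Trim69* between 0 and 3.40, and *Trim29* reached 2.13 in 1 library. The remaining ones, *Trim9*, *Trim30e-ps1*, *Trim34b*, *Trim42*, *Trim43a*, *Trim43c* and *Trim67*, reached at most 4.12.

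The signalling that TRIM ligases act on was read from a list of RNA and DNA sensing and interferon signalling. It held 26 symbols for 23 genes, since some genes were listed under both an older and a newer name. All 23 were tested, and 1 was higher and 1 lower, or 8.70% called against 9.84% of all tested genes. *Mb21d1*, the older symbol of the DNA sensor cGAS, fell, with 753, 711 and 723 in WT and 601, 579 and 569 in Lcn10-KO (−0.32 ± 0.06, adjusted p = 0.00664). Without Lcn10-KO replicate 3 it lost its call (0.0524), as it did without the trend (0.0796). *Ikbke*, a kinase upstream of interferon genes, rose, with 959, 1181 and 1118 in WT and 1354, 1489.6 and 1395 in Lcn10-KO (0.38 ± 0.07, adjusted p = 0.012). Its call was lost without Lcn10-KO replicate 2 or 3 (0.0699 and 0.0640) and without the trend (0.120). *Traf3*, an adaptor of interferon induction, did not overlap between genotypes and missed the threshold (−0.17 ± 0.05, 0.0528), and *Mavs*, the mitochondrial adaptor of RNA sensors, overlapped (0.17 ± 0.06, 0.0989).

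Of 17 ubiquitin-conjugating enzymes that serve TRIM ligases, 16 were tested and 0 passed by limma, with 1 at an unadjusted p under 0.05. That was *Ube2o*, at 619, 554 and 555 in WT and 513, 504 and 499.6 in Lcn10-KO (−0.19 ± 0.07, adjusted p = 0.0881), and all 16 intervals lay within 1.5-fold. Among 20 relatives outside the rule, such as *Pml* (TRIM19), 10 were tested and 0 passed, with 3 at an unadjusted p under 0.05. *Pml*, the organiser of nuclear bodies, had 828, 856 and 809 in WT and 775, 756 and 748 in Lcn10-KO. Its groups did not overlap (−0.13 ± 0.05, adjusted p = 0.141), as was the case in *Fsd1l* (−0.25 ± 0.10, 0.134).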

How the data were processed

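RNA of 6 libraries, 3 WT and 3 Lcn10-KO, was measured. The deposited table holds a normalized signal per gene. Its totals, nearly equal between libraries, and its stepped low values show scaled read counts. The submitters' processing notes name DESeq2, Salmon 0.11.2, STAR 2.6.1a, bcl2fastq and the build mm10, with neither role nor order. The annotation and the strand setting of the counting were not given in the sources used here. Low values were whole multiples of a read within 0.1 reads in 84.7% to 90.1%, so whole reads were not recovered and no count model was run.

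The 12091 genes that reached 10 in 3 or more libraries were fitted as log2(value + 1) on genotype alone with limma 3.58.1 in R 4.3.3, using its trend and robust options. P-values were adjusted by Benjamini-Hochberg over all tested genes. Intervals are 95% intervals of the fitted difference of means. Their width rests on the spread between libraries, which limma moderated toward a trend over all genes. The procedure was tested on simulated counts, drawn independently with the same spread setting for every gene. Shifts shared by many genes of a library were not simulated, so that test does not cover them.

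Members, role classes, lists and alternatives were chosen with earlier results of these data known. The rule for named genes took called members, *Mid1*, *Mid2*, up to 3 further members per class and 4 genes per list by p, the 5 highest levels per kb and *G530011O06Rik*; other genes were named after their values were seen. Gene models came from GENCODE M21 (GRCm38), promoters from RefSeq (GRCm38.p6). Figures were drawn with matplotlib 3.10.9.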

Additional observations from a re-analysis of the deposited data

How the results depend on the processing

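The 2 members called lower and 0 called higher stayed 2 and 0 under quantile normalization, median ratio rescaling, limma without robust estimation, both other filters and pseudocounts of 0.5 and 10. Without the mean-variance trend 0 were called lower, and only 14 of all 12091 genes were called instead of 1190. Leaving out each library in turn gave 1 to 2 members lower, 1 without each Lcn10-KO library (*Mid1*), and 0 to 1 higher, 1 without WT replicate 2 (*Trim41*). Over all genes the calls fell to 566, 207 and 175 without Lcn10-KO replicates 1 to 3 and lay between 887 and 1664 without a WT library. In 17 members, none called in either fit, the sign of the log2 fold change turned in 33 recomputations. By quantile normalization *Trim24* had 0.011, *Trim46* −0.010 and *Trim59* 0.0019. Leaving out libraries gave the ranges *Mid2* −0.10 to 0.45, *Trim7* −0.40 to 0.075, *Trim11* −0.045 to 0.040, *Trim12c* −0.083 to 0.18, *Trim14* −0.020 to 0.15, *Trim16* −0.013 to 0.13, *Trim24* −0.061 to 0.035, *Trim25* −0.058 to 0.0015, *Trim30b* −0.67 to 0.23, *Trim30d* −0.063 to 0.23, *Trim34a* −0.080 to 0.17, *Trim36* −0.014 to 0.13, *Trim37* −0.067 to 0.013, *Trim39* −0.0027 to 0.13, *Trim46* −0.25 to 0.28, *Trim47* −0.027 to 0.060, *Trim59* −0.039 to 0.032. The cause was not tested. Replicate numbers were checked for pairing: libraries of the same number had correlations of deviations of 0.038, 0.073 and 0.014, and 5 of 6 correlated best with their own number. None of the 3 correlations was over 0.1, and the labels name no shared animal or batch, so pairing was not assumed, and whether libraries share more than a number cannot be told from the labels. With the replicate block 2 members were lower and 0 higher, and 1607 genes were called in all. The count model that was planned as an alternative was not run, since whole reads were not recovered. Intervals past 1.5-fold were found in members with low values and also in *Mid1*, *Trim5* and *Trim45*, and the part of depth in their width was not tested.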
